A study of Mus musculus with 9 samples.

Results

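Regulatory T cells induced in culture with TGFβ (TGFβ-iTreg cells) were compared with the CD4+ T cells taken on day 0, across all genes with enough signal. Of 14912 genes in the deposited table, 10236 had normalized counts of 5 or more in 3 or more of the 6 libraries compared. The other 4676 genes were not tested. A gene with 5 or more only in the 3 libraries of 1 group also passed, and its direction then followed from this filter. Such genes, among them Ccl1, Tnfrsf13c, Rsad2, Oas2, Dsp, Fbln2, Plekhd1, Asb2 and Amz1, are included in the counts below. The 6 libraries are among the 9 of the series. All cells came from mice of the strain B6.Cg-Foxp3tm2(EGFP)Tch/J, labelled hemizygous for Foxp3tm2Tch, in which eGFP is made from the Foxp3 locus. In these mice eGFP marks cells that transcribe Foxp3, the gene of the defining transcription factor of regulatory T cells (Treg cells). The day 0 group held 3 libraries of CD4+ T cells without eGFP, which the labels do not call naive. The TGFβ-iTreg group held 3 libraries of CD4+ cells with eGFP, taken on day 5 after culture with antibodies to CD3 and CD28 (1 µg/ml), with TGFβ at 10 ng/ml and with IL-2 at 300 U/ml. The labels do not say how eGFP+ cells were separated. Culture, activation, IL-2, TGFβ and the selection for eGFP therefore differed together between the groups, and their shares cannot be told apart. A further group of 3 libraries, CD4+ eGFP+ cells taken on day 5 of co-culture with tumour organoids labelled CRC, entered only the estimate of the spread between libraries. The labels give this group the same antibodies at 1 µg/ml, a lower IL-2 dose than that of the TGFβ-iTreg cells, and no TGFβ dose. Every SE and p-value below therefore rests in part on cells that were also activated in culture. Whether the libraries of a group came from separate animals or cultures is not stated in the labels, and each p-value therefore measures only the spread between these samples.

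Naive and resting CD4+ T cells circulate through lymph nodes, divide rarely and carry the T cell receptor with its signalling proteins ready for use. Triggering the receptor together with CD28 starts growth and division, IL-2 acts through STAT5, and TGFβ acts through SMAD proteins, which bind the Foxp3 gene and switch it on. Interferon genes work through 2 broad arms: interferon-γ acts at GAS elements and strongly induces the GTPases of the GBP and IRG families, while type I interferon activates the ISGF3 complex at ISRE elements and induces antiviral genes such as the Ifit and Oas families.

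Values are normalized counts, that is, read counts of a 3′-end method divided by a size factor for each library, and values of 3 libraries stand in the order of replicates 1, 2 and 3. A log2 change is TGFβ-iTreg minus day 0 on the scale log2(normalized count + 1), with its standard error (SE), which understates the change of genes with few counts. A fold is the ratio of the group means. Each adjusted p comes from limma's moderated test with Benjamini-Hochberg adjustment over all 10236 genes, and a gene rose or fell where it was under 0.05. Each named gene that rose or fell did so in each of 24 alternative analyses unless stated otherwise. A normalized count compares libraries, not genes with each other.

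The label held for the reporter. eGFP stood at 26.3, 51.1 and 86.5 in the day 0 libraries and 588, 674 and 695 in the TGFβ-iTreg libraries, a log2 change of 3.71 ± 0.35 (adjusted p = 1.5e-05). Every TGFβ-iTreg library lay far above every day 0 library. Foxp3 itself was read rarely, at 8.77, 0 and 2.11 against 19.7, 14.9 and 14.8, and rose by 2.47 ± 0.77 on the log2 scale (adjusted p = 0.038), a call that ended in 13 of the 24 alternatives; with a filter at 20 it was not tested. It ended without any 1 of the 6 libraries compared except day 0 replicate 1, with adjusted p from 0.067 without day 0 replicate 3 to 0.11 without day 0 replicate 2. Tbx21, which defines T helper 1 cells, stood at 28.1, 5.38 and 23.2 against 14.8, 15.6 and 7.90 (adjusted p = 0.83).

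Depth ranged from 2267922 to 5328169 counts in the day 0 libraries and from 2078223 to 9944952 in the TGFβ-iTreg libraries. Day 0 replicate 3 stood apart in several measures. The summed level of 8 MHC class II genes, which antigen-presenting cells make, was 1653, 879.0 and 7476 in the day 0 libraries and 671.5, 724.3 and 376.5 in the TGFβ-iTreg libraries, and all 8 were highest there among day 0 libraries. Of the 6 tested, 3 fell and 1 rose. The CD8 T cell markers summed to between 115.3 and 149.1 in all 6 libraries. The 9 T cell markers in the table summed to between 30264 and 32678 at day 0 and between 18654 and 21054 in TGFβ-iTreg cells, and 7 of them fell. In a bulk library, fewer cells of a type and less RNA per cell cannot be told apart. Xist, the RNA of the inactive X chromosome, stood at 3.51, 0 and 212 and 0, 2.71 and 70.6, so that replicate 3 of each group was the high one. Foxp3 is X-linked and the label hemizygous is used for males, so the Xist level of replicate 3 goes against that label in both groups. What part these differences have in the results was not tested, and 1587 of the 2043 calls below were also made without day 0 replicate 3. The correlation of log2 values was 0.90 to 0.92 between day 0 libraries, 0.92 to 0.96 between TGFβ-iTreg libraries and 0.80 to 0.89 across the groups.

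In all, 2043 genes, 20.0% of those tested, differed between the groups: 1070 rose (10.5%) and 973 fell (9.51%). Among these, 711 rose and 601 fell at least 2-fold. In 1915 genes (18.7%) every TGFβ-iTreg library was above every day 0 library and in 1921 (18.8%) every one was below. Of the 2043 called genes, 2006 had no overlap between the groups. A lack of overlap, where given below, therefore describes the values and adds little to a call. For the largest rises and falls taken by the naming rule it was a condition of the choice. The median log2 change of all tested genes was -0.02. Rises made up 52.4% of the calls, a balance that depended on the scaling. With totals made equal across libraries, 1789 rose and 581 fell (75.5% rises), and the median moved to 0.22. Mitochondrial transcripts took 17.4% to 19.6% of the normalized counts of the day 0 libraries and 10.4% to 12.3% of those of the TGFβ-iTreg libraries. Scaling without mitochondrial genes and Rn45s gave 1372 rises and 731 falls (65.2% rises) with a median of 0.11, and limma-voom on the recovered counts gave 639 and 830 (43.5% rises). Small changes of about 0.2 on the log2 scale are therefore not read as a direction below.

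**Figure D1:**
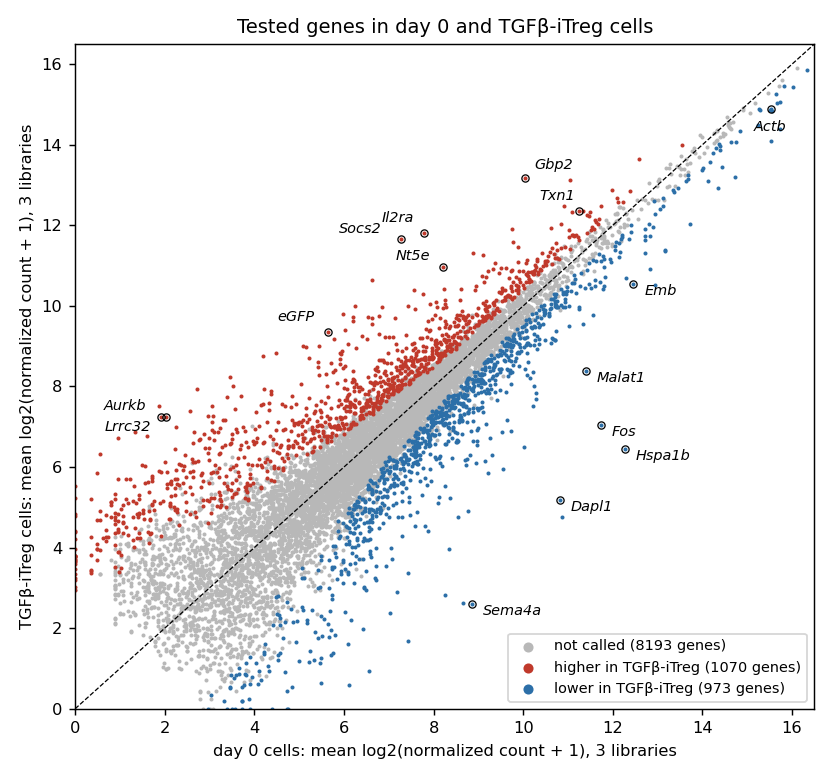
Mean log2(normalized count + 1) of 3 day 0 libraries (horizontal axis) against 3 TGFβ-iTreg libraries (vertical axis), 1 point per tested gene, with the dashed line marking equal levels. The 1070 genes that rose (red) lie above the line, the 973 that fell (blue) lie below it, and the 8193 genes that were not called (grey) surround it.

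The interferon-inducible genes split into families that moved in opposite directions on balance. The guanylate-binding proteins (GBP) and immunity-related GTPases (IRG), which attack the membranes around intracellular pathogens, rose in 8 of 14 tested members and fell in 2, with a median log2 change of 1.37. Of 29 tested antiviral genes 14 fell and 3 rose, with a median of -1.30. Over all tested genes 10.5% rose and 9.51% fell. Both directions held under each scaling tried; the antiviral falls numbered 10 with equal totals. Leaving out TGFβ-iTreg replicate 1 left 5 GBP and IRG rises and 9 antiviral falls, and leaving out day 0 replicate 1 or TGFβ-iTreg replicate 2 left 7 antiviral falls each. The antiviral rises numbered 1 without day 0 replicate 2 or TGFβ-iTreg replicate 3.

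Promoter sequences of members from both families are shown because the elements through which the arms act can be read in them. The windows are those of RefSeq on GRCm38.p6, from 250 bases before to 50 bases after the start of the gene, printed 5′ to 3′ on the strand of the gene. Capitals mark each match to TTCNNNGAA (the GAS core) or to GAAA, any 2 bases and GAAA again (the ISRE core), searched on both strands, and the motifs can overlap. The windows lie at chr3:142620413-142620712 for Gbp2 (plus strand), chr11:58199306-58199605 for Igtp (plus), chr11:58214727-58215026 for Irgm2 (plus), chr19:34640639-34640938 for Ifit1 (plus), chr19:34583279-34583578 for Ifit3 (plus) and chr12:26456403-26456702 for Rsad2 (minus strand). The first 3 genes rose and the other 3 fell.
Gbp2: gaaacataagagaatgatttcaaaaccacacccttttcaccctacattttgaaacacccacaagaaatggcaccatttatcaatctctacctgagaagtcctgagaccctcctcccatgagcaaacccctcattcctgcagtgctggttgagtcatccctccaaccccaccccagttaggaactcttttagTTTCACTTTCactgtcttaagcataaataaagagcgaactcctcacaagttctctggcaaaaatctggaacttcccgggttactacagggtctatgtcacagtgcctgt
Igtp: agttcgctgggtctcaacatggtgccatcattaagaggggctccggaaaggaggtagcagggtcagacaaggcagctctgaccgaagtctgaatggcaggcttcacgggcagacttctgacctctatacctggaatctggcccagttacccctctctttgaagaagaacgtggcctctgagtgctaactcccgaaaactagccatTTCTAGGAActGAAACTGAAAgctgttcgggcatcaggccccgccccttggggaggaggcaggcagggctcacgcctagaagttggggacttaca
Irgm2: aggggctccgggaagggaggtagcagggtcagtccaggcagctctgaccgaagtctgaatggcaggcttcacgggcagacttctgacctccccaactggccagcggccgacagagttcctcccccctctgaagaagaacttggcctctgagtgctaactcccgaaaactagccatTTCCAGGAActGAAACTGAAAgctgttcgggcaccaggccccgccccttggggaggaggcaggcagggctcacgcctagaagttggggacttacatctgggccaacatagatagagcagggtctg
Ifit1: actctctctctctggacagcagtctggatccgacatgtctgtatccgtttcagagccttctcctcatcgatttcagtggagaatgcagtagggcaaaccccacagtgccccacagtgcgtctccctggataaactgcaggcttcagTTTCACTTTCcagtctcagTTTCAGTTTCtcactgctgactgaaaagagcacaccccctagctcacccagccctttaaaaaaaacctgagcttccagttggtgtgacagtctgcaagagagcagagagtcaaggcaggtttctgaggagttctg
Ifit3: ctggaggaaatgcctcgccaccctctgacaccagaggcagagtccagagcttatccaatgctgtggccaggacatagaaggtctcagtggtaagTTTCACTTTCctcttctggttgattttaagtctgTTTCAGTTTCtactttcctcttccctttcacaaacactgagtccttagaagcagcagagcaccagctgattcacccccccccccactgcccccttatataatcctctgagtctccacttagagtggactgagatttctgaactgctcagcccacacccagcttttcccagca
Rsad2: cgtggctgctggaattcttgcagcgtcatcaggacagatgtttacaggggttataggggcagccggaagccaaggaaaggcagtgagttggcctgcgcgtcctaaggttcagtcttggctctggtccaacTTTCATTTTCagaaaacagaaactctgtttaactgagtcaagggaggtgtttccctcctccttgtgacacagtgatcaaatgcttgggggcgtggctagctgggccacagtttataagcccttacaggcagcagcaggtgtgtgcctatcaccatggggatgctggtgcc

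The ISRE core was present in members of both directions. It was found in 5 of the 5 GBP and IRG genes that rose and had a promoter entry, and in 8 of the 11 antiviral genes that fell and had one. It was also found in 2 of 2 GBP and IRG genes and 4 of 9 antiviral genes that were not called. Of all 27025 genes with a RefSeq promoter 3.99% held it, and of the 7739 tested genes with an entry 3.84%. The GAS core was found in 2 of the 5 risen GBP and IRG genes, Igtp and Irgm2, and in 2 of the 2 that were not called. The windows of Igtp and Irgm2 read almost alike around their matches, so these 2 genes do not count as unlike sequences. Among antiviral genes the GAS core was found in 1 of the 11 that fell, 4 of the 9 that were not called and 1 of 1 that rose, a gene without the ISRE core. It was found in 9.55% of all genes and 8.53% of tested genes. A match is a description of the letters and does not show that a factor binds there.

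Gbp2 (chromosome 3, 142620602 to 142638008 on GRCm38, GENCODE M21), a GTPase induced by interferon-γ, stood at 965, 868 and 1420.0 in the day 0 libraries and 11432, 7084 and 9621 in the TGFβ-iTreg libraries, 8.65-fold higher (log2 change 3.12 ± 0.20, adjusted p = 1.6e-06). The lowest TGFβ-iTreg library was well above the highest day 0 library. Gbp3, from the same cluster (chromosome 3, 142560026 to 142573209), stood at 85.97, 34.9 and 127 against 967, 584 and 863, 9.75-fold higher (adjusted p = 1.7e-04). Igtp, also called IRGM3, stood at 774, 831 and 981 against 4479, 2972 and 4346, 4.56-fold higher (log2 change 2.17 ± 0.16, adjusted p = 5.0e-06). Both groups of 3 were tight for Igtp and did not overlap. Irgm2 stood at 229.8, 242 and 236 against 674, 519 and 851 (adjusted p = 1.4e-04), and Iigp1, an effector IRG, at 118, 72.6 and 155 against 492, 464 and 1082 (adjusted p = 4.0e-04). The models of Igtp and Irgm2 overlap on the same strand (chromosome 11, 58199556 to 58207591 and 58199618 to 58222782), so their reads, and these 2 rises, may not be separate. Gbp1, Irgm1 and Gbp6 also rose, by 3.90, 1.24 and 0.88 on the log2 scale, but lost the call in 2, 6 and 5 alternatives. Without TGFβ-iTreg replicate 1 the adjusted p was 0.069 for Gbp1, 0.055 for Irgm1 and 0.081 for Gbp6. The Irgm1 and Gbp6 calls also ended without day 0 replicate 3 (adjusted p = 0.058 and 0.051) or TGFβ-iTreg replicate 3 (0.067 and 0.053), and that of Irgm1 without day 0 replicate 2 (0.067).

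The GBP genes did not move as 1 block. Gbp8 stood at 689, 653 and 695 against 403, 289 and 272 and fell (log2 change -1.10 ± 0.23, adjusted p = 0.0051), and Gbp9 stood at 119, 113 and 69.6 against 17.2, 34.6 and 22.2 and fell (adjusted p = 0.0072), except without both day 0 replicate 2 and TGFβ-iTreg replicate 1. No library of 1 group overlapped the other for either gene. The models of Gbp8 and Gbp9 overlap (chromosome 5, 105014150 to 105139540 and chromosome 5, 105077630 to 105139539), so the reads of these genes may not be separate. Gbp6, which rose, lies on the same chromosome, and Gbp7, beside Gbp3 on chromosome 3, was not called (log2 change -0.54, adjusted p = 0.095), although without day 0 replicate 3 its fall passed (adjusted p = 0.032). GBP genes resemble each other in sequence, and how reads that match several copies were counted is not given in the sources used here, so values could be shared among them.

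Among the antiviral genes, the Ifit genes, whose proteins bind foreign RNA, fell together. Ifit1 stood at 533, 349 and 377 against 71.3, 48.2 and 108, 5.54-fold lower (log2 change -2.51 ± 0.31, adjusted p = 1.1e-04). Ifit2 stood at 244, 207 and 139 against 7.38, 54.3 and 25.7 (adjusted p = 0.0014), and Ifit3 at 149, 67.2 and 43.3 against 27.1, 4.07 and 17.8 (adjusted p = 0.014, lost in 3 alternatives; 0.071 without day 0 replicate 1 and 0.051 without TGFβ-iTreg replicate 2). All 3 lie in the Ifit cluster on chromosome 19 and in each the groups did not overlap. Rsad2 (viperin), an inhibitor of viral replication, stood at 38.6, 32.3 and 16.9 against 0, 2.03 and 0, and Oas2, which makes the activator of RNase L, at 24.6, 34.9 and 18.99 against 0, 0 and 1.48, with log2 changes of -4.31 ± 0.67 and -4.28 ± 0.74 (adjusted p = 6.5e-04 and 0.0014). The TGFβ-iTreg value of each rests on 3 reads, all in 1 library, so no fold is given, and with a filter at 20 neither was tested. The RNA sensor Ddx58 (RIG-I) fell from 446, 368 and 407 to 241, 195 and 239 (adjusted p = 0.0078) and the DNA-binding Pyhin1 from 777, 911 and 695 to 258, 179 and 270.2 (adjusted p = 1.1e-04).

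Against the other antiviral genes, Samhd1, which breaks down deoxynucleotides, stood at 2004, 1688 and 2091 against 5623, 4785 and 6762 and rose (log2 change 1.56 ± 0.14, adjusted p = 1.1e-05). The other rises on the list were Ifi27l2a and Zbp1 (by 1.20 and 0.83), with the call lost in 5 and 6 alternatives. Without day 0 replicate 2 or TGFβ-iTreg replicate 3 the adjusted p was 0.095 and 0.075 for Ifi27l2a and 0.06 and 0.068 for Zbp1, whose call also ended without day 0 replicate 3 (0.055) or TGFβ-iTreg replicate 2 (0.051). Isg15, a ubiquitin-like protein, and Mx1, a GTPase against viruses, were read rarely, at 78.95, 16.1 and 10.6 against 0, 10.9 and 16.3 and 3.51, 8.06 and 12.7 against 0, 4.07 and 6.42, and were not called (adjusted p = 0.16 and 0.32).

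**Figure D2:**
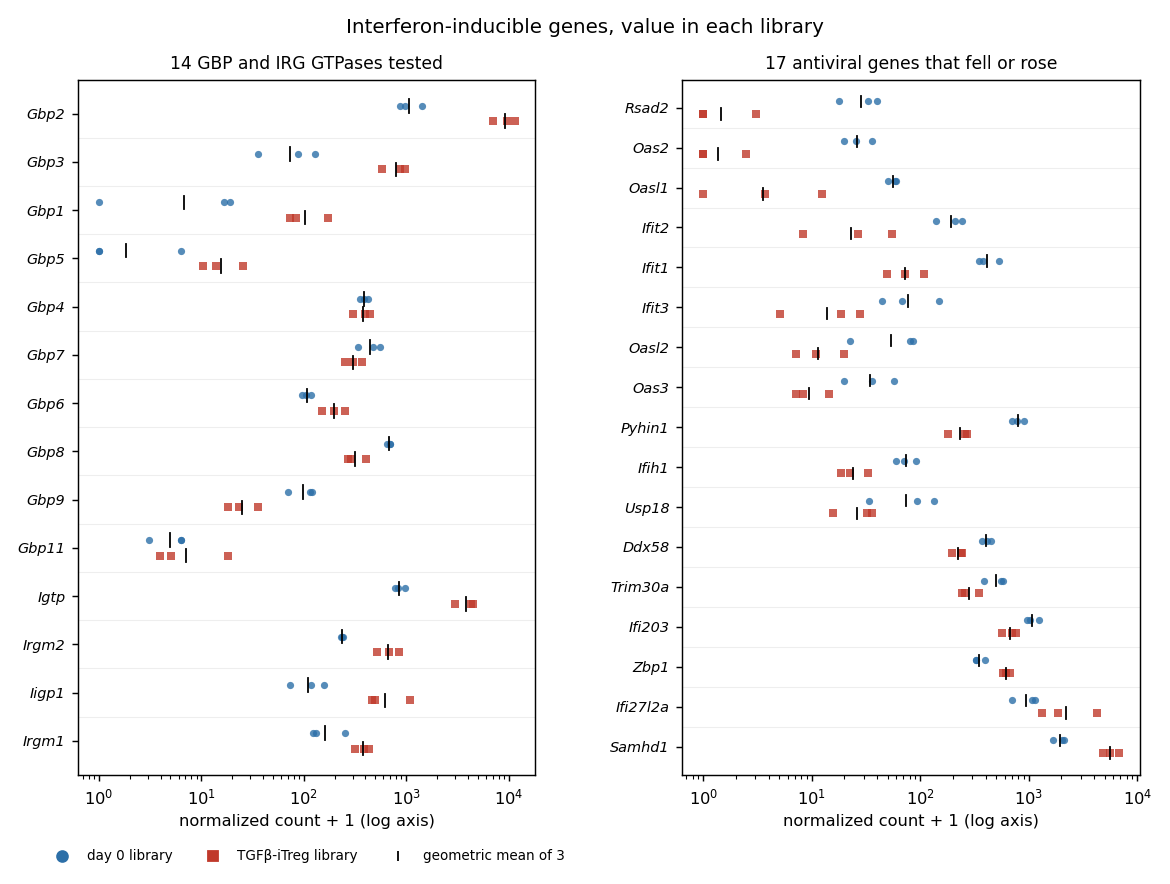
Normalized count + 1 on a log axis in each day 0 library (blue circles) and each TGFβ-iTreg library (red squares), with a tick at the geometric mean of 3, for the 14 tested GBP and IRG genes (left) and the 17 antiviral genes that fell or rose (right). Gbp2, Gbp3 and the 4 IRG genes sit to the right in TGFβ-iTreg libraries, while 14 of the 17 antiviral genes sit to the left.

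A receptor gene and some regulators of interferon signalling moved as well. Ifngr1, the ligand-binding chain of the interferon-γ receptor, stood at 509, 726 and 574 against 2282, 2153 and 1318, 3.18-fold higher (adjusted p = 1.3e-04), and its groups did not overlap. Ifng itself was variable, at 29.8, 0 and 24.3 against 49.2, 0 and 4.45, and was not called (adjusted p = 0.86). Of 12 tested interferon regulatory factors, 4 rose and 2 fell. Irf8 stood at 98.2, 75.3 and 127 against 885, 959 and 667 (log2 change 3.07 ± 0.25, adjusted p = 8.5e-06), and Irf4, which acts downstream of the T cell receptor, at 33.3, 45.7 and 108 against 224, 333 and 510.4 (adjusted p = 6.3e-04). Neither gene's groups overlapped. Irf1, which interferon-γ induces, rose by 0.56 (adjusted p = 0.01, lost in 2 alternatives), while Irf7, the amplifier of type I interferon, fell by 0.92 (adjusted p = 0.041). The Irf7 call was lost in 15 alternatives, with adjusted p up to 0.12 (without TGFβ-iTreg replicate 2). The falls among these factors numbered 0 without day 0 replicate 1 or 3 or TGFβ-iTreg replicate 1 or 3, and 1 without day 0 replicate 2 or TGFβ-iTreg replicate 2.

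Genes known as targets of STAT5, which IL-2 activates, were among the rises. Il2ra (CD25), the high-affinity chain of the IL-2 receptor, stood at 137, 148 and 535 against 3303, 2924 and 4726, 13.4-fold higher (log2 change 4.01 ± 0.38, adjusted p = 1.6e-05). Its highest day 0 value was in replicate 3 and still far below every TGFβ-iTreg library. Of 22 tested genes for JAK kinases, STAT factors, SOCS inhibitors and PIM kinases, 7 rose and 2 fell; with equal totals 11 rose and 1 fell. Socs2, a feedback inhibitor, stood at 54.4, 132 and 497 against 3242, 2052 and 5185 (log2 change 4.40 ± 0.56, adjusted p = 1.5e-04). Cish, another STAT5 target, stood at 56.1, 32.3 and 114 against 406, 411 and 562 (adjusted p = 7.9e-05), and Socs1, which restrains interferon-γ signalling, at 497, 669 and 487 against 2846, 1999 and 2557 (adjusted p = 9.0e-06). In all 3 the day 0 and TGFβ-iTreg libraries were well separated. Pim1, a survival kinase, rose by 1.80 and Stat3 by 0.74 (lost in 1 alternative), while the kinase gene Jak1 fell, from 3411, 3519 and 3314 to 2423, 2144 and 2085 (adjusted p = 0.0015).

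Other cytokine receptors moved both ways. Of 24 tested, 7 rose and 3 fell, but the rises numbered 3 or 4 without day 0 replicate 1 or 2 or any 1 TGFβ-iTreg library, the falls numbered 1 without day 0 replicate 1, and limma-voom gave 3 rises and 5 falls. Il2rb, shared by the IL-2 and IL-15 receptors, stood at 137, 88.7 and 227 against 944, 938 and 645 (adjusted p = 3.8e-05) and had no overlap between groups. Il7r, which keeps resting T cells alive, stood at 1539, 1562 and 1575 against 1117, 835 and 986 (log2 change -0.68 ± 0.14, adjusted p = 0.0047), and every TGFβ-iTreg library was lower. Il16, a cytokine that attracts CD4+ cells, fell by 0.97 (adjusted p = 0.0029).

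Of 22 tested genes of TGFβ and BMP signalling, 7 rose and 4 fell, and with equal totals, TMM factors, quantile normalization or scaling without mitochondrial genes the counts were the same. The rises included inhibitors of the pathway, and the falls were Tgfbr2, Tgfbr3, Smad1 and Smad3. Pmepa1, which sequesters receptor-activated SMADs, stood at 47.4, 64.5 and 85.5 against 674, 745 and 617, 10.3-fold higher (log2 change 3.38 ± 0.26, adjusted p = 7.6e-06). Its relative Ldlrad4 stood at 70.2, 10.8 and 62.2 against 423, 434 and 395 (adjusted p = 4.6e-04). Both sets of TGFβ-iTreg libraries were tight and lay above all day 0 libraries. The SMAD corepressors Skil and Tgif1 rose by 1.58 ± 0.26 and 1.87 ± 0.27 (adjusted p = 9.8e-04 and 3.6e-04), and the BMP receptor gene Bmpr2 by 2.43 (adjusted p = 0.0015).

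In contrast, Tgfbr3 (betaglycan), a co-receptor that presents TGFβ, stood at 349, 417 and 551 against 76.2, 65.1 and 78.1 and fell (log2 change -2.55 ± 0.25, adjusted p = 2.0e-05). Tgfbr2, the receptor chain that binds the ligand, stood at 1263, 1027 and 977 against 637, 615 and 557 (adjusted p = 0.0045), and no library overlapped for either gene. Tgfbr1, the signalling chain, rose by 1.30 (adjusted p = 0.015), but without day 0 replicate 3 its adjusted p was 0.053 and without TGFβ-iTreg replicate 2 it was 0.076. Smad3 fell by 1.11 and Smad1 by 1.52 (adjusted p = 0.0063 and 0.0056); the Smad3 call ended in 2 alternatives. Tgfb1, the ligand gene, was read rarely (24.6, 10.8 and 11.6 against 7.38, 5.43 and 7.90, adjusted p = 0.31). Lrrc32 (GARP), which holds latent TGFβ on the surface of Treg cells, stood at 7.02, 0 and 7.38 against 123, 179 and 158 and was among the largest rises (log2 change 5.23 ± 0.66, adjusted p = 1.3e-04).

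Among receptors of the TNF superfamily, some of which costimulate T cells, 7 of 15 tested members rose and none fell. Their median log2 change was 0.79, and 6 of the 15 had a negative log2 change. With quantile normalization or without a variance trend 1 fell, and limma-voom gave 4 rises. Tnfrsf4 (OX40) stood at 35.1, 37.6 and 59.1 against 339, 317 and 284, 7.13-fold higher (log2 change 2.84 ± 0.23, adjusted p = 8.1e-06). Tnfrsf18 (GITR) stood at 281, 202 and 216 against 664, 534 and 615, and Tnfrsf9 (4-1BB) at 43.9, 51.1 and 37.98 against 155, 229 and 95.8 (adjusted p = 7.5e-05 and 7.4e-04). The groups did not overlap in any of these 3. Tnfrsf13c, the receptor for BAFF and best known from B cells, stood at 0, 0 and 4.22 against 39.4, 33.9 and 29.1 (log2 change 4.33 ± 0.79, adjusted p = 0.0019), with no overlap. The 8 B cell markers in the table summed to 33.3, 53.8 and 63.3 at day 0 and 68.9, 90.2 and 31.1 in TGFβ-iTreg cells, and neither of the 2 tested was called. Cd40, known from antigen-presenting cells, rose by 3.96 (adjusted p = 0.017, lost in 5 alternatives). Without TGFβ-iTreg replicate 3 its adjusted p was 0.068, and without day 0 replicate 3, where it was highest at day 0, 0.0015. Its ligand gene Cd40lg moved the other way, from 85.97, 88.7 and 103 to 19.7, 10.2 and 25.2 (adjusted p = 0.011).

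Of 25 tested NF-κB subunits, inhibitors and TRAF genes, which act downstream of these receptors, 4 rose and none fell, with 1 fall in 9 of the 24 alternatives, among them the fit without day 0 replicate 1, and 6 rises with equal totals. The called share of this list was below the 20.0% of all tested genes, and the median log2 change was 0.10. Traf1, an adaptor of TNF receptors, stood at 159.7, 145 and 196 against 293, 380.5 and 419 (log2 change 1.11 ± 0.19, adjusted p = 0.0014). Traf4, a related adaptor, stood at 35.1, 59.1 and 33.8 against 101, 122 and 169, and Bcl3, an inhibitor-like partner of NF-κB, at 98.2, 91.4 and 81.2 against 244, 160.1 and 193 (adjusted p = 0.0054 and 0.0028). All 3 genes were higher in every TGFβ-iTreg library. In PI3K signalling, the catalytic subunit gene Pik3cg fell from 132, 204 and 148 to 73.8, 58.3 and 54.8 (adjusted p = 0.0052), while Ddit4, an inhibitor of mTOR, rose from 221, 360.2 and 230.0 to 615, 542 and 544 (adjusted p = 0.0016).

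Of 16 tested CD28-family and checkpoint receptors, 3 rose and 3 fell. Ctla4, which competes with CD28 for its ligands, stood at 40.4, 59.1 and 98.1 against 829, 891 and 931, 13.4-fold higher (adjusted p = 2.2e-06), and Icos at 300.0, 231 and 492 against 671, 608 and 815 (adjusted p = 0.005). Btla, an inhibitory receptor, fell from 421, 306 and 475 to 68.9, 186 and 109 (adjusted p = 0.0013), and Cd226, an activating receptor for nectin-like ligands, from 293, 425 and 390.3 to 152, 117 and 83.99 (adjusted p = 0.0052). For none of the 4 did a TGFβ-iTreg library reach into the day 0 range. The adenosine-making surface enzyme Nt5e (CD73) stood at 196, 285 and 453 against 1859.5, 2432 and 1774 (log2 change 2.76 ± 0.26, adjusted p = 1.6e-05).

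Chemokine genes changed in most tested members: 4 of 7 rose and 1 fell, although with a filter at 20 there were 2 rises. Ccl1, 1 of the rises, passed the filter only through its TGFβ-iTreg values. Xcl1, which attracts cross-presenting dendritic cells, stood at 68.4, 61.8 and 222 against 1955, 1559.8 and 1339, 13.8-fold higher (log2 change 4.01 ± 0.47, adjusted p = 8.3e-05). Ccl4, an inflammatory chemokine, stood at 28.1, 5.38 and 58.02 against 571, 549 and 306 (adjusted p = 0.0026). Ccl1, the ligand of CCR8, was not read in any day 0 library and stood at 36.9, 14.9 and 34.1 in the TGFβ-iTreg libraries, at least 18.04-fold higher when set against a floor of 3 counts over the day 0 group (adjusted p = 0.0029; not tested with a filter at 20). Ccl5, a chemokine typical of memory T cells, fell from 518, 118 and 334 to 66.4, 33.9 and 16.8 (log2 change -2.98 ± 0.55, adjusted p = 0.0021).

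Receptors that guide cells within and out of lymphoid tissue fell more often than they rose (3 rose and 5 fell of 16), a balance that was 4 and 4 with equal totals. Gpr183 (EBI2), which reads oxysterol gradients, stood at 535, 441 and 352 against 34.4, 43.4 and 15.8, 14.2-fold lower (log2 change -3.88 ± 0.39, adjusted p = 2.2e-05). Cxcr5, the receptor for entry into B cell follicles, stood at 66.7, 29.6 and 32.7 against 0, 14.2 and 2.47 (adjusted p = 0.0078), and Cxcr6, known from tissue T cells, at 235, 142 and 373 against 63.95, 8.82 and 14.3 (adjusted p = 0.011). S1pr1, needed to leave lymph nodes, stood at 4089.6, 3355 and 3108 against 1436, 1249.9 and 1406 (adjusted p = 6.2e-05). In all 4 genes the groups were apart. Ccr9, the gut-homing receptor, moved the other way, from 128, 102 and 126 to 433, 254 and 299.9 (log2 change 1.44 ± 0.21, adjusted p = 4.9e-04); the rises on this list numbered 1 without TGFβ-iTreg replicate 1 or 2. Ccr7, for entry into lymph nodes, was not called (1037, 1075 and 1088 against 1569, 1396 and 1248, adjusted p = 0.16), but its rise passed with equal totals (adjusted p = 0.026) and without replicate 3 of the co-culture group (0.042).

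Adhesion molecules moved both ways, with 6 rises and 8 falls among 22 tested genes. With equal totals there were 7 rises and 4 falls and with scaling without mitochondrial genes 6 and 5. The rises numbered 3 without day 0 replicate 1 or 2 or TGFβ-iTreg replicate 3, and the falls 5 without day 0 replicate 1 or 3 or TGFβ-iTreg replicate 3. Itgae (CD103), the integrin chain that binds E-cadherin, stood at 26.3, 29.6 and 51.7 against 622, 569.7 and 364, 14.5-fold higher (log2 change 3.84 ± 0.63, adjusted p = 9.8e-04). Cdh1, which is E-cadherin itself, also rose, from 5.26, 0 and 2.11 to 34.4, 25.1 and 52.9 (adjusted p = 0.0038). Cdh1 was 1 of 5 epithelial markers in the table, which summed to 15.8, 18.8 and 12.7 against 135.3, 137.7 and 138.8. Epcam, the only other one tested, stood at 5.26, 18.8 and 7.38 against 93.5, 113 and 74.1 and rose (adjusted p = 0.002). The keratin gene Krt18 was at 0 in every TGFβ-iTreg library, and Vil1, a protein of gut epithelium, was at 0 in 2 of the 3. Neither of these was tested, and only 5 of the 10 epithelial markers listed were in the table. Among the falls were Itgal, the α chain of LFA-1, from 1682, 1441 and 2029.8 to 701, 828 and 508 (adjusted p = 1.9e-04), its ligand gene Icam2 from 309, 371 and 283 to 116, 120.0 and 68.7 (adjusted p = 0.0017), and the immunoglobulin-family gene Emb from 5923, 5830.4 and 5169 to 1717, 1293 and 1456 (adjusted p = 5.6e-06). Groups did not overlap in any of these 5 genes.

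Some enzymes that build the sugars of surface proteins changed: of 31 tested glycosyltransferases 4 rose and 5 fell. The called share was 29.0%, against 20.0% of all tested genes. There were 2 rises without TGFβ-iTreg replicate 1, 3 falls without day 0 replicate 1, and 6 rises and 4 falls with equal totals. St3gal1, which adds sialic acid to O-linked sugars, stood at 1453, 1064 and 1077 against 197, 201 and 155, 6.50-fold lower (log2 change -2.69 ± 0.24, adjusted p = 1.1e-05). St6galnac4, another sialyltransferase of O-linked sugars, moved the other way, from 61.4, 21.5 and 42.2 to 95.9, 138 and 134 (log2 change 1.63 ± 0.38, adjusted p = 0.0082). B4galt1, a galactosyltransferase, rose from 611, 387 and 682 to 1449, 1449 and 2328 (adjusted p = 7.8e-04). The libraries of the groups were apart for each of these enzymes. Lgals1, a lectin that binds galactose-bearing sugars, rose from 797, 720.4 and 953 to 1547, 1388 and 2069.6 (adjusted p = 0.0011), and Lgals3bp, a ligand of galectins, fell from 829.9, 664 and 648 to 309.9, 208 and 219 (adjusted p = 2.3e-04).

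Guidance molecules known from the nervous system changed in both directions. Sema4a, a semaphorin, stood at 439, 468 and 493 against 0, 5.43 and 33.1, 36.3-fold lower (log2 change -6.27 ± 0.90, adjusted p = 3.8e-04), the largest fall by the naming rule. Sema7a, a membrane-anchored semaphorin, stood at 19.3, 0 and 27.4 against 148, 120.0 and 331 (log2 change 4.45 ± 0.94, adjusted p = 0.005), and Nrp1, a semaphorin co-receptor and Treg marker, at 109, 53.8 and 159 against 637, 667 and 1004 (adjusted p = 1.1e-04). No group overlapped in these genes. On the list of 13 tested semaphorins, plexins, neuropilin and ephrins, 2 rose and 3 fell. The called share was 38.5%, against 20.0% of all tested genes. The falls numbered 1 without day 0 replicate 1 or 3 or TGFβ-iTreg replicate 1.

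**Figure D3:**
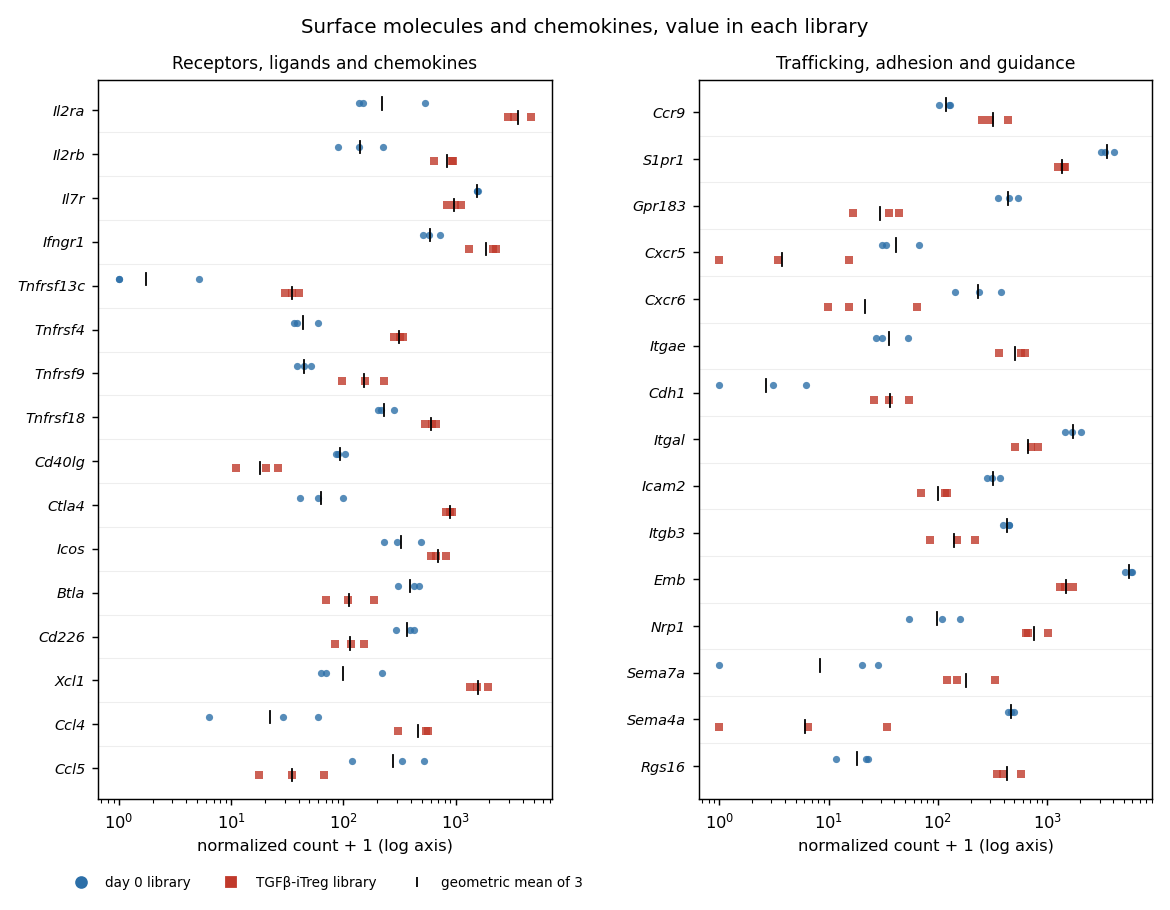
Normalized count + 1 on a log axis in each day 0 library (blue circles) and each TGFβ-iTreg library (red squares), with a tick at the geometric mean of 3, for receptors, ligands and chemokines (left) and molecules of trafficking, adhesion and guidance (right). Il2ra, Ctla4, Xcl1 and Itgae sit to the right in TGFβ-iTreg libraries, and Gpr183, Emb and Sema4a sit to the left.

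Of 28 tested G protein-coupled receptors outside the chemokine list and Rgs inhibitors, 9 rose and 9 fell, with 5 falls without day 0 replicate 2. Rgs16, an inhibitor of G proteins, stood at 21.1, 10.8 and 22.2 against 396, 578 and 344, 24.4-fold higher (log2 change 4.56 ± 0.46, adjusted p = 2.2e-05), and its relative Rgs1 at 100.0, 61.8 and 239 against 1001, 1030.2 and 983 (adjusted p = 1.5e-04). All TGFβ-iTreg values were above day 0 for both Rgs genes. Among the falls, the receptor gene Gpr132 stood at 135, 151 and 175 against 44.3, 54.9 and 43.97 (log2 change -1.67 ± 0.25, adjusted p = 4.9e-04), also with no overlap. The cytotoxic protease gene Gzmb rose from 28.1, 21.5 and 59.1 to 762, 276 and 654 (log2 change 3.93 ± 0.37, adjusted p = 1.6e-05) and Ctsw from 126, 99.5 and 167 to 664, 520.2 and 618 (adjusted p = 1.4e-05). Of 18 tested granzymes and serpins 6 rose and 1 fell, with 2 rises without TGFβ-iTreg replicate 1 or by limma-voom and 9 with equal totals.

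The T cell receptor complex and its proximal signalling proteins fell in many members: of 36 tested members 17 fell and 1 rose, with a median log2 change of -0.48; with equal totals 10 fell and 2 rose. Cd4 stood at 2812, 2196 and 2366 against 1043, 969.8 and 1014 (adjusted p = 2.2e-05), and Themis, which adjusts receptor sensitivity, at 261, 314 and 175 against 59.03, 48.2 and 42.5 (adjusted p = 5.5e-04). The receptor chain genes Cd247 and Cd3g and the kinase gene Lck fell by 0.82, 0.80 and 0.67 on the log2 scale. The exception was Ubash3b (STS-1), a phosphatase that dampens the receptor, which rose from 126, 116 and 208 to 396, 576 and 482 (log2 change 1.72 ± 0.26, adjusted p = 4.9e-04). The groups were apart in each of these genes. Among 8 tested GIMAP GTPases, which support survival of resting lymphocytes, Gimap6, Gimap7 and Gimap8 fell (by 1.07, 2.04 and 1.06) and Gimap9 rose by 0.80, counts that were the same under each alternative.

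Several immediate-early genes, which respond within minutes to stimulation or stress, fell. Fos stood at 3500.1, 2599 and 4409.8 against 61.5, 80.7 and 446, 17.9-fold lower in TGFβ-iTreg cells (log2 change -4.70 ± 0.58, adjusted p = 1.3e-04). Fosb stood at 546, 183 and 526 against 9.84, 30.5 and 57.3, and Junb at 8037, 9037 and 6609 against 1109, 1335 and 2142 (adjusted p = 5.0e-04 and 8.8e-06). Of 13 tested AP-1, BATF, MAF and BACH genes 4 fell, Jun being the fourth (by 1.11), and 2 rose; the falls numbered 4 in each of the 24 alternatives. Dusp1, a MAP kinase phosphatase induced early after stress or stimulation, fell from 665, 569.9 and 657 to 51.7, 75.96 and 118 (log2 change -3.01 ± 0.30, adjusted p = 2.3e-05). It was 1 of 5 falls among 16 tested Egr, Nr4a and Dusp genes, with 3 falls and 4 rises for equal totals. The 3 rises were Dusp14, from 0, 0 and 6.33 to 41.8, 67.1 and 47.4 (adjusted p = 0.0072), Dusp4, from 0, 2.69 and 8.44 to 41.8, 116 and 28.2 (adjusted p = 0.0022), and the nuclear receptor gene Nr4a2, from 0, 0 and 5.27 to 9.84, 25.8 and 29.1 (adjusted p = 0.0088). By limma-voom none of these 3 passed, and with a filter at 20 Nr4a2 was not tested. Zfp36, which destabilises cytokine mRNAs, fell by 1.78 (adjusted p = 0.0017). Maf rose from 68.4, 34.9 and 106 to 216, 205 and 343 (adjusted p = 0.0052), and the rises on the AP-1 list numbered 1 without day 0 replicate 1 or 2 or any 1 TGFβ-iTreg library, and 3 without day 0 replicate 3.

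The heat shock genes Hspa1a and Hspa1b, which refold proteins after stress, were among the largest falls. Hspa1b stood at 4274, 4927 and 5666 against 39.4, 160.1 and 99.3, 49.8-fold lower (log2 change -5.83 ± 0.38, adjusted p = 1.9e-06), and Hspa1a at 1495, 2054 and 2102 against 14.8, 47.5 and 24.7 (adjusted p = 1.4e-05). Every day 0 library was far above every TGFβ-iTreg library. The 2 genes are near-identical neighbours (chromosome 17, 34969190 to 34972156 and chromosome 17, 34956436 to 34959238), so their reads could be split between them in ways the values do not show. Of 32 tested cytosolic heat shock genes and cochaperones, 6 fell and none rose, a called share of 18.8%, below the 20.0% of all tested genes. With equal totals or scaling without mitochondrial genes 4 fell and 3 rose, and the list's median was -0.26. Hsp90aa1 and Dnajb1 fell by 0.93 and 1.02; the Hsp90aa1 call was lost in 1 alternative.

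Lineage and helper transcription factors changed in both directions: of 42 tested, 12 fell and 7 rose, which turned to 7 falls and 10 rises with equal totals; limma-voom gave 4 rises. Lef1, which acts with TCF-1, stood at 5176, 5166 and 4789 against 1577, 1826 and 1562, 3.05-fold lower (log2 change -1.61 ± 0.14, adjusted p = 1.1e-05). Its partner gene Tcf7 stood at 1144, 933 and 1073 against 342, 316 and 384, and Satb1, a chromatin organiser, at 3859.8, 3089 and 3781 against 1122, 1286 and 2038 (adjusted p = 2.9e-05 and 3.3e-04). Id2, an inhibitor of E proteins, stood at 340.4, 180.1 and 480.0 against 76.2, 113 and 99.3 (adjusted p = 0.0024). The groups were apart in all 4.

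Rises among transcription factors included Ikaros relatives. Ikzf4 (Eos), a Foxp3 partner, stood at 29.8, 21.5 and 20.05 against 159.9, 192 and 217, 7.97-fold higher (log2 change 2.95 ± 0.27, adjusted p = 1.3e-05), and Ikzf2 (Helios) at 61.4, 61.8 and 74.9 against 290.2, 149 and 342 (adjusted p = 4.0e-04). Nfil3, a basic leucine zipper factor, stood at 0, 0 and 5.27 against 66.4, 31.9 and 28.2 (log2 change 4.44 ± 0.74, adjusted p = 0.001). Each of the 3 had no overlap between groups. Myc, the driver of growth, rose from 395, 398 and 305 to 922, 898 and 700.1 (adjusted p = 5.6e-04). Gata3, which defines T helper 2 cells, did not pass the test (400.0, 459.7 and 493 against 376, 329.6 and 512, adjusted p = 0.55). Among 10 tested Krüppel-like factors, Klf9 stood at 15.8, 0 and 5.27 against 108, 73.2 and 83.00 and rose (adjusted p = 0.0019), and Klf4, Klf6 and Klf3 fell by 2.70, 1.56 and 0.98. The rises among these factors, 2 in all, numbered 1 without day 0 replicate 2 or TGFβ-iTreg replicate 1 or 2.

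Of 15 tested Notch and Wnt genes 3 rose and 1 fell, a called share of 26.7% against 20.0% of all tested genes, with 2 falls without TGFβ-iTreg replicate 3. Dtx1 (Deltex), a ubiquitin ligase and Notch target linked to T cell anergy, stood at 502, 395 and 327 against 0, 16.3 and 12.4, 42.8-fold lower (log2 change -6.04 ± 0.83, adjusted p = 2.7e-04); it is not on that list. Nrarp, another Notch target that limits Notch activity, moved the opposite way, from 24.6, 0 and 4.22 to 36.9, 81.4 and 93.9 (log2 change 3.71 ± 0.90, adjusted p = 0.011). Rbpj, the DNA-binding partner of Notch, stood at 288, 379 and 577 against 1026, 1150.2 and 682 (adjusted p = 0.0042). The fall on the list was Maml2, a Notch coactivator, from 78.95, 134 and 109 to 31.98, 43.4 and 33.1 (adjusted p = 0.0059), which ended without both day 0 replicate 2 and TGFβ-iTreg replicate 1. In each of the 4 genes the libraries of the groups were fully separate, which for Dtx1 was also required by the rule for the largest falls.

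Genes of DNA replication and mitosis rose: 21 of 48 tested replication genes and 33 of 54 tested mitosis genes rose, with median log2 changes of 0.90 and 2.07, while 0 and 2 fell. By limma-voom 12 and 11 rose. Mcm6, a subunit of the replicative helicase, stood at 202, 255 and 378 against 1144, 1094 and 802, 3.64-fold higher (log2 change 1.89 ± 0.23, adjusted p = 9.9e-05), and Mcm5 of the same ring at 80.7, 148 and 78.1 against 285, 339.8 and 203 (adjusted p = 0.0062). Aurkb, a mitotic kinase, stood at 1.75, 0 and 18.99 against 165, 138 and 149 (adjusted p = 4.9e-04). The groups did not overlap, and for Aurkb the day 0 reads came mostly from replicate 3. The 2 falls were Pttg1 (securin), which restrains separase, from 421, 489 and 368 to 187, 197 and 152 (log2 change -1.25 ± 0.17, adjusted p = 2.2e-04), and Smc4, a condensin subunit, from 1611, 1175 and 1174 to 588, 585 and 434 (log2 change -1.30 ± 0.17, adjusted p = 1.6e-04).

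The promoters of the helicase genes are shown for the site of E2F, the family that drives replication genes. The RefSeq windows on GRCm38.p6 are chr1:128359656-128359955 for Mcm6 (minus strand) and chr8:75109259-75109558 for Mcm5 (plus strand), and capitals mark matches to TTTNNCGC on either strand, which overlap where a site reads on both.
Mcm6: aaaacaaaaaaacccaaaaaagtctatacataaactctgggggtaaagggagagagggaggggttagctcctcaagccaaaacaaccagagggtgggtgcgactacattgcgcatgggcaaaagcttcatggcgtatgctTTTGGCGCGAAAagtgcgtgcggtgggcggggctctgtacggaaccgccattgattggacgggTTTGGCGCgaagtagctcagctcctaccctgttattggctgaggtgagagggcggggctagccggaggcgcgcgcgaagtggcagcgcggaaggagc
Mcm5: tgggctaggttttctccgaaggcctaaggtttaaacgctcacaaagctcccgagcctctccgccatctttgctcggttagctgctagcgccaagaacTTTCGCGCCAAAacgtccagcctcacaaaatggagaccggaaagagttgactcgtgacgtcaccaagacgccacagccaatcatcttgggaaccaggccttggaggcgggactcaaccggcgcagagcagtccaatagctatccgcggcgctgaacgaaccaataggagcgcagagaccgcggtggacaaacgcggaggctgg

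The E2F letters were found in 8 of 15 risen replication genes with a promoter entry and in 10 of 24 that were not called, against 10.4% of tested genes and 5.93% of all genes in the table, so they were frequent on the list whether or not a member rose.

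Of 22 tested genes of pyrimidine and deoxynucleotide metabolism 9 rose and 1 fell; Samhd1, described above, which degrades deoxynucleotides, is 1 of the rises. Rrm2, a subunit of ribonucleotide reductase, stood at 198, 164 and 305 against 1392, 1293 and 1079.5, 5.64-fold higher (adjusted p = 9.3e-06), and Tk1, thymidine kinase, at 8.77, 2.69 and 16.9 against 101, 95.6 and 109 (adjusted p = 5.5e-04). No library overlapped between the groups. Rrm2b, the subunit used outside S phase, was the fall (by 1.56, adjusted p = 0.014, with adjusted p from 0.051 to 0.057 without day 0 replicate 1 or 3 or TGFβ-iTreg replicate 2).

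Among 41 tested cyclins, cyclin-dependent kinases, their inhibitors and E2F factors 12 rose and 2 fell; there were 0 falls without day 0 replicate 2 or 3 or TGFβ-iTreg replicate 1 or 2, and 1 without day 0 replicate 1. E2f1, an activator of the E2F family, stood at 1.75, 0 and 18.99 against 54.1, 71.2 and 48.9 (log2 change 3.94 ± 0.83, adjusted p = 0.0049). Ccna2, the cyclin of S phase, stood at 42.1, 2.69 and 40.1 against 251, 264 and 218, and Cdk1, the mitotic kinase, at 17.5, 80.6 and 51.7 against 457, 345 and 364 (adjusted p = 0.0026 and 2.0e-04). Every TGFβ-iTreg library was above day 0 for the 3 genes. Cdk4, the kinase of G1, rose less, from 377, 468 and 421 to 868, 901 and 787 (log2 change 1.02 ± 0.16, adjusted p = 6.1e-04). Of 20 tested histone genes 4 rose and none fell, with a median log2 change near 0. The called share was 20.0%, the same as over all tested genes. The falls numbered 1 without day 0 replicate 1 or TGFβ-iTreg replicate 3, and 2 without replicate 2 of the co-culture group. The rises included the variant gene H2afz, from 2029.9, 2183 and 2339.9 to 5593, 4974 and 4964 (adjusted p = 8.8e-06), and the linker histone gene H1f0, from 89.5, 94.1 and 80.2 to 204, 210.2 and 265 (adjusted p = 0.0028).

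Metabolic genes rose in part. Of 9 tested polyamine genes 3 rose, a called share of 33.3% against 20.0% of all tested genes. Odc1, the entry enzyme, rose from 105, 148 and 184 to 477, 608 and 519 (log2 change 1.90 ± 0.22, adjusted p = 6.4e-05), and Smox and Sat1, which break polyamines down, by 1.55 and 0.83. The transaminases Got1 and Got2, which move aspartate and malate between compartments, stood at 947, 529.5 and 966 against 2135, 1893 and 1907 and 170.2, 164 and 157 against 453, 425 and 404 (adjusted p = 8.3e-04 and 5.8e-05). They were the largest of 5 rises among 29 tested TCA cycle and glutamine genes, a called share of 17.2% against 20.0% of all tested genes; with equal totals 10 rose. Tkt, transketolase, rose by 1.29 and Pgls by 1.22, 2 of the 3 rises among 7 pentose phosphate genes (called share 42.9%). Of 25 tested fatty acid genes 5 rose and 1 fell, a called share of 24% against 20.0% of all tested genes. The rises were led by Scd1, a desaturase (log2 change 2.78 ± 0.53, adjusted p = 0.0026, lost in 1 alternative), and Acsl3, an acyl-CoA synthetase (2.08 ± 0.34, adjusted p = 8.8e-04). By limma-voom 2 rose, and the fall was lost without any 1 of the libraries compared except TGFβ-iTreg replicate 2. Txn1, thioredoxin, stood at 2668, 2083 and 2628 against 5104, 5018 and 5709.7 (adjusted p = 4.7e-05), and its inhibitor gene Txnip at 3611, 4314 and 4192 against 8126, 7788 and 6631 (adjusted p = 4.9e-04). Both were higher in every TGFβ-iTreg library. Of 27 tested redox genes 7 rose and none fell, a called share of 25.9% against 20.0% of all tested genes. With equal totals 11 rose.

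Some subunits of several large complexes rose by small amounts. Of 79 tested nuclear genes of the respiratory chain 31 rose and 1, the assembly factor gene Ndufaf4, fell (by 0.63; lost without any 1 of the libraries compared except TGFβ-iTreg replicate 2), with a median log2 change of 0.33. Uqcr11 of complex III stood at 318, 258 and 327 against 585, 687 and 489.6 (log2 change 0.96 ± 0.18, adjusted p = 0.0021) and Cox5b of complex IV at 770.2, 892 and 869 against 1429, 1396 and 1339 (log2 change 0.72 ± 0.14, adjusted p = 0.0036). Of 42 tested proteasome genes 17 rose and none fell (median 0.43), among them Psmb4 of the core (1288, 1274 and 1164 against 2054, 1974 and 1926, adjusted p = 7.8e-04) and Psmd8 of the lid (528, 688 and 613 against 1134, 899.9 and 1016, adjusted p = 0.0062). Of 76 tested mitochondrial ribosomal proteins 12 rose and none fell, with a median log2 change of 0.28. The called share was 15.8%, all rises, while 20.0% of all tested genes were called and 10.5% rose. The rises were led by Mrps6 (log2 change 1.23 ± 0.21). The 5 risen genes named had no overlap between groups. No scaling turned these directions, but the counts moved: 6 to 11 proteasome genes rose without any 1 of the 6 libraries compared, 16 to 20 respiratory genes without any 1 of them but day 0 replicate 2, and 7 mitochondrial ribosomal genes without any 1 TGFβ-iTreg library. Without a variance trend 2 proteasome genes rose, and with equal totals 30 did, beside 53 respiratory and 26 mitochondrial ribosomal genes.

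In the lists of protein and lysosomal turnover some members rose and others fell. Of 20 tested aminoacyl-tRNA synthetases 4 rose and 2 fell, a called share of 30% against 20.0% of all tested genes. There was 1 fall without day 0 replicate 2 or TGFβ-iTreg replicate 1, and 8 rises and 1 fall with equal totals. Wars, the synthetase that interferon-γ is known to induce, stood at 78.95, 67.2 and 75.96 against 369, 191 and 333, 4.02-fold higher (log2 change 1.94 ± 0.33, adjusted p = 0.0012), while Dars fell from 709, 634 and 699 to 502, 395 and 304 (adjusted p = 0.0067). In neither did the groups overlap. Of 32 tested chaperone and unfolded protein response genes of the endoplasmic reticulum 3 rose and 4 fell. The called share was 21.9%, near the 20.0% of all tested genes. The falls numbered 2 without day 0 replicate 2 or any 1 TGFβ-iTreg library. The chaperone gene Hsp90b1 fell from 558, 812 and 603 to 396, 351 and 349 (adjusted p = 0.0059), and Ssr4, a subunit beside the translocon, rose from 504, 352 and 396 to 779.7, 807 and 837 (adjusted p = 7.4e-04). Of 39 tested lysosomal genes 7 rose and 5 fell, a called share of 30.8%. The rises numbered 4 without TGFβ-iTreg replicate 1 and the falls 2 without TGFβ-iTreg replicate 3. The protease gene Ctsl stood at 26.3, 51.1 and 61.2 against 169.7, 137 and 189 and rose (log2 change 1.89 ± 0.33, adjusted p = 0.0014). Lipa, the acid lipase, stood at 479, 401 and 359.8 against 159.9, 155 and 159.6 and fell (log2 change -1.37 ± 0.23, adjusted p = 0.0011). Of 15 tested iron and heme genes 1 rose and 2 fell, a called share of 20%, the same as over all tested genes. The rises numbered 3 without day 0 replicate 1 or TGFβ-iTreg replicate 2. The falls numbered 1 without day 0 replicate 1 or 2 or any 1 TGFβ-iTreg library. Hmox2, which degrades heme, rose from 309, 185 and 508 to 824, 808 and 1516 (adjusted p = 0.0024), while Fth1, the ferritin heavy chain that stores iron, fell from 5634, 5234 and 4928 to 3207, 3069 and 3372 (adjusted p = 5.9e-04).

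Cytosolic ribosomal genes did not share this direction. Of 87 tested genes named Rpl or Rps, which include ribosomal S6 kinases, 23 fell and 4 rose, but with equal totals 11 fell and 14 rose and with quantile normalization 7 fell and 14 rose, so no direction is given for the family; the rises numbered 2 without TGFβ-iTreg replicate 2 or 3. Of 49 splicing factors 14 fell and 1 rose, but with equal totals 4 fell and 9 rose, and without any 1 of the 6 libraries compared 8 or 9 fell. Of 46 actin cytoskeleton genes and myosins 16 fell and 5 rose, with 9 and 8 for equal totals and 10 falls without day 0 replicate 1. Capg, which caps filaments, stood at 77.2, 99.5 and 171 against 686, 873 and 1045 (log2 change 2.95 ± 0.26, adjusted p = 1.1e-05), and Coro2a at 49.1, 32.3 and 129.8 against 376, 411 and 444 (adjusted p = 1.9e-04). Flna, a crosslinker, fell from 1474, 1812 and 1529 to 561, 612 and 598 (log2 change -1.44 ± 0.16, adjusted p = 4.2e-05), and the groups of all 3 were apart.

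Of 256 tested genes named Zfp, most of which encode zinc finger proteins, 23 fell and 5 rose, with a median log2 change of -0.46. The called share was 10.9%, below the 20.0% of all tested genes. With equal totals 14 fell and 11 rose, and the falls numbered 12 without day 0 replicate 2 and the rises 3 without TGFβ-iTreg replicate 2. Zfp831 stood at 94.7, 118 and 123 against 27.1, 22.4 and 38.5 (log2 change -1.93 ± 0.36, adjusted p = 0.0022) with no overlap. Malat1, an abundant nuclear long noncoding RNA, stood at 2565, 2328 and 3296 against 315, 319 and 369.6, 8.16-fold lower (log2 change -3.01 ± 0.18, adjusted p = 1.3e-06). No TGFβ-iTreg library came near the day 0 range. Tet1, which oxidises methylated cytosine, fell from 57.9, 59.1 and 100.2 to 12.3, 0.678 and 3.46 (adjusted p = 0.0017).

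Of 17 tested tubulins and partners 4 rose and 2 fell, a called share of 35.3% against 20.0% of all tested genes. The median log2 change was 0.25, and with equal totals 8 rose. Tuba4a and Tuba1a fell from 589, 849 and 422 to 244, 295 and 196 and from 405, 642 and 394 to 143, 193 and 194 (adjusted p = 0.0032 and 0.0015). Stmn1, which takes microtubules apart, rose from 244, 290.3 and 403 to 826, 769.7 and 773 (log2 change 1.37 ± 0.20, adjusted p = 4.0e-04). The largest rise on the list was Tubb6, from 7.02, 0 and 6.33 to 31.98, 53.6 and 23.7 (adjusted p = 0.011), a call lost by limma-voom. Among translation factors, 8 of 43 rose and 3 fell, with 17 rises for equal totals and 5 falls without replicate 2 of the co-culture group. The called share was 25.6%, against 20.0% of all tested genes. Eif5a, which polyamine chemistry activates, rose by 1.06 (adjusted p = 4.0e-05) and Eif4ebp1, an inhibitor of cap-dependent translation, by 1.75 (adjusted p = 0.0063), while Eif4a2 fell by 1.32 (adjusted p = 1.9e-05).

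**Figure D4:**
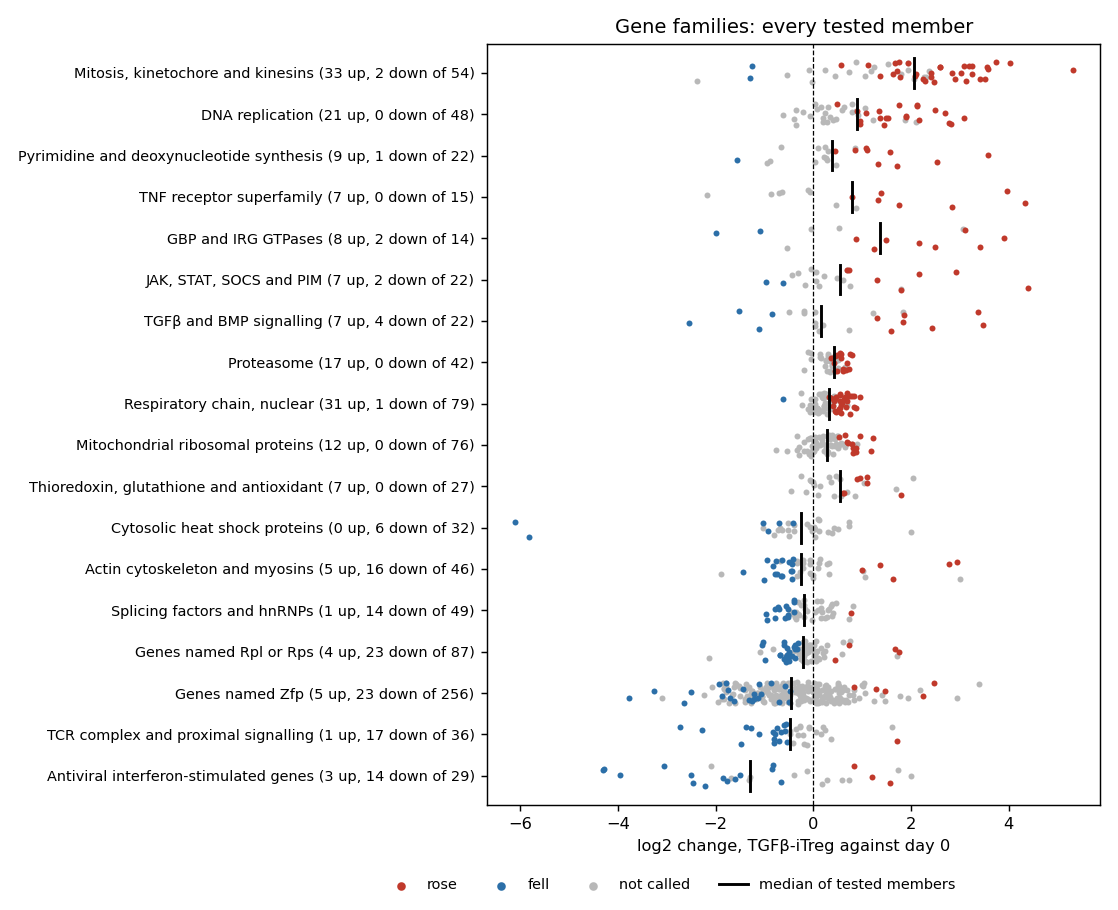
Log2 change (TGFβ-iTreg against day 0) of every tested member of 18 gene families, 1 point per gene, red where it rose, blue where it fell and grey where it was not called, with a black bar at the family's median. Mitosis and GBP and IRG genes have medians to the right and antiviral genes to the left, while the proteasome and respiratory chain form narrow bands of small changes.

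The largest changes over all genes included genes best known from other tissues. Dsp (desmoplakin), which anchors filaments to cell junctions, stood at 0, 0 and 2.11 against 59.03, 92.2 and 89.9 (log2 change 5.77 ± 0.84, adjusted p = 4.2e-04). It had 2 reads in the 3 day 0 libraries and passed the filter only through its TGFβ-iTreg values. Fbln2, an extracellular matrix protein, was not read at day 0 and stood at 49.2, 31.2 and 31.6, at least 23.5-fold higher against the floor of 3 counts over the day 0 group (adjusted p = 3.2e-05). Plekhd1 was not read there either and stood at 86.1, 27.8 and 38.5, at least 32.01-fold higher. Src, a tyrosine kinase, stood at 1.75, 0 and 16.9 against 165, 205 and 180.3, 29.5-fold higher (adjusted p = 0.0049), and its day 0 reads came mostly from replicate 3; without that library the log2 change was 6.79 (adjusted p = 0.0018). Ncf1, a subunit of the phagocyte oxidase, stood at 8.77, 0 and 133 against 293, 281 and 337 (adjusted p = 0.011, lost in 2 alternatives), and without day 0 replicate 3 its log2 change was 6.60 (adjusted p = 7.6e-05). Pdgfb, a growth factor for mesenchymal cells, stood at 0, 0 and 27.4 against 54.1, 144 and 164 (log2 change 5.17 ± 1.03, adjusted p = 0.0035).

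Among the 15 largest rises, Lcn10 and Arrdc4 were uneven among TGFβ-iTreg libraries. Lcn10, a lipocalin, stood at 0, 24.2 and 7.38 against 337, 510.0 and 26.7, so that TGFβ-iTreg replicate 3 was only just above the highest day 0 library (adjusted p = 0.0062, lost in 2 alternatives). Arrdc4, which shares regulation by glucose with Txnip, stood at 7.02, 0 and 1.05 against 280.4, 120.0 and 46.9 (adjusted p = 1.9e-04, lost in 1 alternative). Actr3b, an actin-related protein, stood at 5.26, 0 and 44.3 against 199, 133 and 551 (adjusted p = 0.011) and lost its call in 4 alternatives (adjusted p = 0.055 without TGFβ-iTreg replicate 3).

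The largest falls besides Sema4a, Dtx1, Fos and the heat shock genes included Dapl1, a gene known from naive T cells, which stood at 1816, 1914 and 1677 against 17.2, 52.9 and 46.9, 46.2-fold lower (log2 change -5.64 ± 0.34, adjusted p = 1.3e-06). Slc16a5, a monocarboxylate transporter, stood at 204, 151 and 165 against 0, 3.39 and 6.42 (52.8-fold lower, adjusted p = 0.001), and Dzip1, a ciliary protein, at 267, 249.99 and 417 against 0, 22.4 and 14.3 (adjusted p = 7.6e-04). Every day 0 library was far above every TGFβ-iTreg library in these genes, and for Dzip1 day 0 replicate 3 was the highest. Fcer1g, the signalling chain of Fc receptors and known from innate and myeloid cells, stood at 57.9, 61.8 and 230.0 against 0, 6.10 and 0 (adjusted p = 0.0032), highest in day 0 replicate 3, where 7 of the 10 myeloid and dendritic markers in the table and all MHC class II genes were highest among day 0 libraries; without that library its log2 change was -4.98 (adjusted p = 0.018). Asb2, a ubiquitin ligase subunit, and Amz1 were not read in any TGFβ-iTreg library and were at least 44.5-fold and 39.2-fold lower than at day 0 against the floor of 3 counts over the TGFβ-iTreg group; with a filter at 20 neither was tested.

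**Figure D5:**
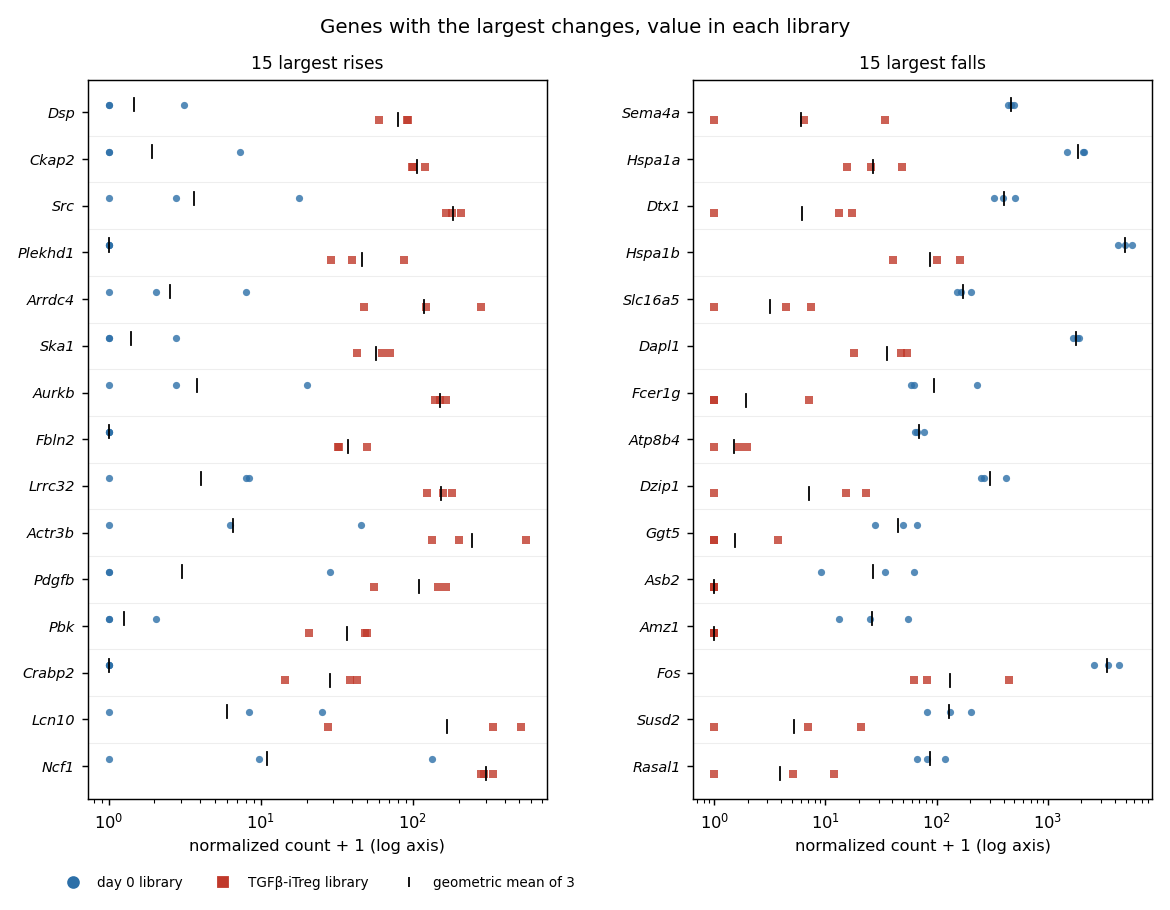
Normalized count + 1 on a log axis in each day 0 library (blue circles) and each TGFβ-iTreg library (red squares), with a tick at the geometric mean of 3, for the 15 genes with the largest rises (left) and the 15 with the largest falls (right). Groups do not overlap because the naming rule required it; Lcn10 and Arrdc4 spread widely among TGFβ-iTreg libraries, while Hspa1b and Dapl1 are tight at day 0.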

How the data were processed

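RNA from 9 libraries was sequenced with a modified CEL-Seq protocol, per the labels' protocols. The submitters' processing notes name BWA, DESeq2 and the build mm10 without versions; the handling of strand and of reads that match several places is, in the sources used here, not given. Values as deposited are gene counts that the authors divided by a size factor for each library, written with decimal commas. Whole counts came back for 100% of the values within 0.1, which gave the depth of each library.

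The test covered genes whose normalized count was 5 or more in 3 or more of the 6 libraries. The test was limma's moderated test (limma 3.58.1, R 4.3.3) with a variance trend on log2(normalized count + 1), fitted to 3 group means over 9 libraries with 6 residual degrees of freedom, so the spread is shared with the co-culture group. Calls needed a Benjamini-Hochberg adjusted p under 0.05. The procedure was tested on simulated data. Tables and plots were made with Python 3.11.15, pandas 2.3.3, numpy 2.4.6 and matplotlib 3.10.9. Gene positions come from GENCODE M21 on GRCm38, which held 207 of the 210 named genes under 1 matching symbol, and promoter sequences from RefSeq on GRCm38.p6.

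The genes named are the 15 largest rises and 15 largest falls without overlap and with a higher group mean of 20 or more, up to 4 members per direction of each gene list, every member of lists with 12 or fewer tested, and a short fixed list of lineage and label genes; some genes that the rule takes are not reported here. Members, lists and this rule were chosen with earlier results of these data known. Genes named outside the rule were chosen after their values were seen: Cd247, Cd3g, Cdk1, Cdk4, Cox5b, Ddx58, Epcam, Gbp6, Gbp7, Ifit1, Ifit3, Ifngr1, Igtp, Ikzf2, Irgm1, Irgm2, Isg15, Krt18, Lck, Mcm5, Mcm6, Mx1, Psmb4, Pyhin1, Satb1, Skil, Stat3, Tgfbr1, Tnfrsf18, Txnip, Vil1 and Zfp831. The 24 alternatives changed the pseudocount, filter, scaling, model, depth or libraries.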

Additional observations from a re-analysis of the deposited data

How the results depend on the processing

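Of 199 named genes that rose or fell, 172 kept their call in all 24 alternatives that tested them, and no call changed direction. Of all 2043 calls, 759 were kept in all 24, where a gene that an alternative did not test counts as not kept. The named genes were mostly taken for large changes or after their values were seen, so their share does not stand for all calls. Leaving out 1 library gave 1426 to 2026 calls, of which 697 to 1054 were rises and 687 to 978 falls, with the fewest rises without TGFβ-iTreg replicate 3. Without both day 0 replicate 2 and TGFβ-iTreg replicate 1, the shallowest library of each group, 1177 genes were called, 630 rises and 547 falls. Equal totals gave 1789 rises and 581 falls and limma-voom 639 rises. The other alternatives kept each of these 3 counts within 1.5 times. Among genes that were not called, the log2 change of Gata3 turned to 0.078 with equal totals. That of Tbx21 ran from -1.126 to 0.093 with libraries left out, the latter without day 0 replicate 1. That of Ifng ran from -3.58 to 0.85, and was 0.37, 0.23 and 0.85 without day 0 replicate 1, day 0 replicate 3 or TGFβ-iTreg replicate 2. The cause was not tested. With the replicate number as a block 1955 genes were called, 1018 rises and 937 falls. Same-numbered day 0 and TGFβ-iTreg libraries deviated together with correlations of 0.059, -0.014 and 0.071, and not every library correlated best with its own number. Pairing by number was therefore not shown, although Xist was highest in replicate 3 of both groups. Depth limits genes with few reads, of which 3 reads over a group correspond to a normalized count of 1.59 at day 0 and 0.768 in TGFβ-iTreg cells, and intervals for such genes would cover counting error only. Tests of whole counts in edgeR or DESeq2, though planned, were not run, and TMM factors were computed with separate code in place of edgeR.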
